A study of Homo sapiens with 6 samples.

Results

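The genes described here are 10 members of the epidermal growth factor receptor (EGFR) family and its direct partners, namely the receptors EGFR, ERBB2 and ERBB3, the ligands AREG, EREG, HBEGF, TGFA, BTC and NRG1, and the receptor inhibitor ERRFI1. They were picked by name, each through its Ensembl identifier, from the 60664 genes of the deposited count table, by a rule that uses no measured value. The choice of names was made with earlier results of these data known. RNA-seq had been run on SiHa cells, a human cervical squamous carcinoma line, in a study of the collagen prolyl 4-hydroxylase subunit P4HA3. The 3 libraries titled SiHa PR came from parental cells and served as controls, and the 3 libraries titled SiHa PR P4HA3 came from the same parental cells overexpressing P4HA3. The study's methods describe P4HA3 overexpression from a cDNA in the lentiviral vector pCDH and from a doxycycline-inducible construct. A figure legend also describes SiHa PR cells transfected with FLAG-P4HA3. The study does not say which was used in the sequenced cells. A legend for RT-qPCR and western blot calls control cells Vector, a word that neither the RNA-seq legend nor the sample labels use. Neither the study nor the labels say whether the overexpressing cells were 1 clone or a pool. Neither source says that the libraries of a group were separate cultures, so the p-values measure the spread between these libraries, which may be technical.

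EGFR, ERBB2 and ERBB3 are receptor tyrosine kinases that sit in the cell membrane and signal as dimers. ERBB2 has no known soluble ligand, and ERBB3 has a weak kinase domain and signals mainly when paired with ERBB2 or EGFR. AREG, EREG, HBEGF, TGFA and BTC are made as membrane-anchored precursors, are cut free by metalloproteases and bind EGFR, with HBEGF, EREG and BTC also able to bind ERBB4. NRG1 binds ERBB3 and ERBB4. Active dimers feed the RAS-MAPK and PI3K-AKT cascades, and the MAPK cascade in turn induces inhibitors of itself. EGFR and its autocrine ligands are well known from squamous epithelium and its carcinomas.

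With P4HA3 overexpression, transcripts of the receptor ERBB3 and of the ligand AREG were lower, by 1.62-fold and 1.46-fold. The other 8 members, EGFR and ERBB2 among them, were not called changed without a correction for the GC content and length of genes. With that correction EREG was called lower as well (log2 fold change -0.26). Outside the 10 genes, the EGFR ligand EPGN and the neuregulin NRG2 were lower too, and so were 9 of 23 tested genes that the MAPK cascade induces, ETV4, ETV5 and IER3 among them, while 2, EGR1 and EPHA4, were higher. Over all tested genes 11.4% were called lower and 9.36% higher, and the 11 calls among the MAPK-induced genes fell to 3 to 5 without any of 3 single libraries.

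The EGFR ligand genes EPGN, EREG, AREG and BTC lie within 486 kb of chromosome 4 (GRCh38). EPGN is separated from EREG by 48.4 kb, EREG from AREG by 56.4 kb and AREG from BTC by 290 kb. Sequences upstream of the first 3 are shown because AREG and EPGN, but not their neighbour EREG, were called lower without GC and length correction. With that correction AREG, EPGN and EREG were all called lower, at log2 fold changes of -0.57, -0.69 and -0.26. Each run is the 150 bases before the annotated start, on the plus strand of GRCh38.p14, from the RefSeq annotation. AREG lies at chr4:74444986-74445135, EPGN at chr4:74308320-74308469 and EREG at chr4:74364995-74365144. Capitals mark TATAAA, the core of the TATA box, and TGACGTCA, the cAMP response element.
AREG: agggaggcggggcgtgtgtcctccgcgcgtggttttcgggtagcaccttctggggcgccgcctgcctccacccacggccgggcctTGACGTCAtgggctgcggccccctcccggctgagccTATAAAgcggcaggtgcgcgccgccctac
EPGN: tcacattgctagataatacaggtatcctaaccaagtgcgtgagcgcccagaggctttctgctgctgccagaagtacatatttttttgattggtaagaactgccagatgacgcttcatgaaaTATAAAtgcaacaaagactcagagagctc
EREG: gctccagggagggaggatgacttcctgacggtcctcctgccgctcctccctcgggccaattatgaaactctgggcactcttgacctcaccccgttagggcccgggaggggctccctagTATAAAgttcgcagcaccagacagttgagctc

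TATAAA began at position -29 from the annotated start in AREG and EPGN and at -32 in EREG. It was searched on the gene's strand and was present in 7.33% of the 35116 promoter windows of 300 bases in the table. TGACGTCA, searched on both strands, began at -65 in AREG, was absent from the EPGN and EREG windows, and was present in 1.85% of all windows. The AP-1 motif TGACTCA (both strands, 4.95% of windows) was found at -232 and -136 of a second EGFR start and at -17 of EGF. TATAAA was also found at -146 and -36 of that EGFR start and at -8 and 16 of NRG4. The ETS motif CCGGAAGT (both strands, 4.14% of windows) was found at -27 and -14 of ERBB2. No match overlapped another motif, and a match or its absence describes the letters alone. Of the 10 members, 8 were in the table, without ERBB3 and NRG1.

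The 6 libraries held between 21773488 and 24939948 counts, with a count in 21992 to 22431 genes. Of all genes, 15130 had enough counts to be tested, and their common biological coefficient of variation was 7.66%. P4HA3 was counted 86, 62 and 93 times in control libraries and 45042, 44775 and 49097 times with overexpression, a log2 fold change of 9.15 (SE 0.101, adjusted p = 3.19e-12, edgeR quasi-likelihood test). Several keratins were abundant, with a mean in control libraries of 5338 CPM (counts scaled to a common library size) for KRT17, 4329 CPM for KRT7 and 1817 CPM for KRT8. Other epithelial and squamous markers were low, with EPCAM at 5.77, KRT19 at 0.841, TP63 at 0.392 and KRT5 at 0.158 CPM. The growth protocol among the labels describes a smooth muscle tissue. Of 7 smooth muscle markers, 6 had at most 1 CPM as a mean over the 6 libraries, with ACTG2 at a mean of 1.17 CPM in the overexpressing ones. All 7 together summed to 7.23 to 10.7 CPM in control libraries and 8 to 10.9 CPM with overexpression. Libraries also differed by the GC content of genes, within as well as between groups. Across 15107 genes, Spearman's rho with GC content was 0.22, 0.38 and -0.52 in control replicates 1 to 3. It was 0.45, -0.48 and 0.077 in overexpressing replicates 1 to 3, and -0.58 for the log2 fold change. Whether this trend came from P4HA3 or from single libraries was not tested. For this reason values from a fit that removes the GC and length trend of each library are given beside the values of the members and the counts of the gene lists.

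All 10 members passed the filter on low counts. Of these, 2 were called lower and 0 higher at an adjusted p under 0.05 (edgeR quasi-likelihood test, Benjamini-Hochberg over all 15130 genes), while 11.4% of all tested genes were called lower and 9.36% higher. With the GC and length correction these shares of all tested genes were 7.73% and 10.7%, and 3 members were called lower, EREG joining ERBB3 and AREG. Without that correction the log2 fold changes of the 10 members ran from -0.70 to 0.21, with a median of 0.03 beside 0.01 over all tested genes. The sign was positive for 5 members and negative for 5. In the 2 called members every overexpressing library lay below every control library, as was the case for 20.4% of all tested genes (19.7% lay above). In RNA from whole cultures, fewer cells that express a gene and less RNA of it per cell cannot be told apart.

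**Figure D1:**
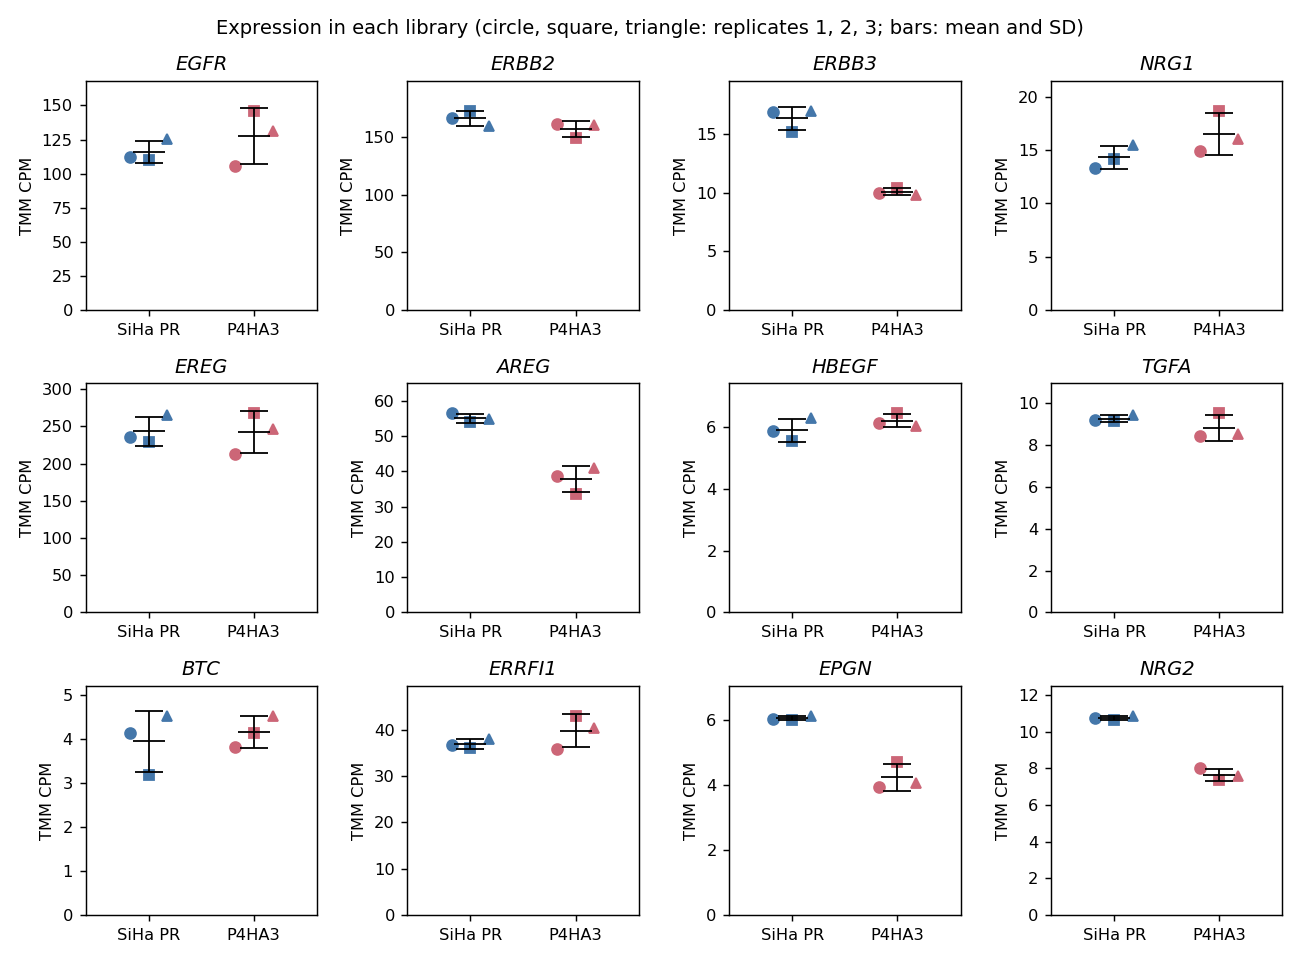
TMM-normalized CPM (y axis, linear from 0, 1 panel per gene) of the 10 members and of EPGN and NRG2 in each library of SiHa PR and SiHa PR P4HA3, with a symbol for each replicate and bars for the mean and SD (n = 3). The 3 overexpressing libraries sit below the 3 control libraries for ERBB3, AREG, EPGN and NRG2, and the groups overlap for EGFR, ERBB2 and EREG.

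Among the receptors, ERBB3 (ENSG00000065361, chr12:56076799-56103505, plus strand) was the member that differed most. It was counted 410, 323 and 415 times in control libraries and 233, 234 and 249 times with overexpression. Scaled by library size and the trimmed mean of M values (TMM), these counts were 16.8, 15.2 and 17.0 CPM against 10, 10.4 and 9.82 CPM. The overexpressing libraries lay close together and all below the lowest control library. The mean fell from 16.3 ± 1.00 to 10.1 ± 0.301 CPM (SD, n = 3 each), a log2 fold change of -0.70 (SE 0.0886, 95% interval -0.89 to -0.50, edgeR adjusted p = 0.00142). After GC and length correction it was -0.68. ERBB3 was called lower in all 14 alternative settings tried, including each of the 6 fits without 1 library, with an adjusted p between 7.73e-08 and 0.0145.

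EGFR (ENSG00000146648, chr7:55019017-55211628, plus strand), the receptor for AREG, EREG, HBEGF, TGFA and BTC, was measured at 112, 109.8 and 125 CPM in control libraries and at 105, 146 and 131 CPM with overexpression. Overexpressing replicate 1 was the lowest of the 6 libraries and overexpressing replicate 2 the highest, so that the groups overlapped. The log2 fold change was 0.14 (SE 0.105, 95% interval -0.09 to 0.37, edgeR adjusted p = 0.34). Without overexpressing replicate 1 it became 0.26 with an adjusted p of 0.0139, so that this library decided the call. Corrected for GC and length, it was 0.05 (adjusted p = 0.626).

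ERBB2 (ENSG00000141736, chr17:39687914-39730426, plus strand), the preferred dimer partner of the other receptors, was measured at 166, 173 and 160.1 CPM in control libraries and at 162, 149.6 and 161 CPM with overexpression. The groups overlapped, with overexpressing replicate 2 lowest. The log2 fold change was -0.08 (SE 0.0568, 95% interval -0.21 to 0.04, edgeR adjusted p = 0.309), and it turned to 0.10 (adjusted p = 0.0797) with the GC and length correction, in a gene whose transcript has a GC content of 60.4%. The exons of ERBB2 share 571 bases, 5.53% of their length, with MIEN1 and 144 bases, 1.4%, with PGAP3. The libraries were strand-specific but the strand setting of the counting is not stated, so reads of these overlaps cannot be assigned with certainty.

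Set against each other within a library, counts of ERBB3 per count of ERBB2 were 0.101, 0.0876 and 0.106 in control libraries and 0.0618, 0.0695 and 0.0612 with overexpression. Counts of ERBB3 per count of EGFR were 0.15, 0.138 and 0.135 against 0.0948, 0.0713 and 0.0746. For both ratios every overexpressing library lay below every control library, and the two-sided exact permutation test gave p = 0.1, the smallest that 3 against 3 libraries allow. The ratio of EGFR to ERBB2, at 0.675, 0.635 and 0.782 against 0.652, 0.976 and 0.819, overlapped between groups (exact permutation p = 0.3).

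Among the ligands of EGFR, AREG (ENSG00000109321, chr4:74445136-74455005, plus strand), which encodes amphiregulin, a low-affinity autocrine growth factor of keratinocytes and carcinomas, was lower. It was counted 1374, 1149 and 1341 times in control libraries and 902, 757 and 1035 times with overexpression. This gave 56.4, 53.9 and 54.8 CPM against 38.7, 33.7 and 40.8 CPM. The control libraries differed little, and all 3 overexpressing libraries lay well below them. The mean fell from 55.0 ± 1.27 to 37.7 ± 3.67 CPM (SD, n = 3 each), a log2 fold change of -0.54 (SE 0.0775, 95% interval -0.72 to -0.37, edgeR adjusted p = 0.00242). Correction for GC and length gave -0.57. AREG was called lower in all 14 alternative settings, with a log2 fold change between -0.60 and -0.47.

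EREG (ENSG00000124882, chr4:74365145-74388749, plus strand), which encodes epiregulin, was the ligand with the highest level per length. It was measured at 235, 229 and 266 CPM in control libraries and at 212, 267 and 247 CPM with overexpression. Overexpressing replicate 1 was the lowest and overexpressing replicate 2 the highest of the 6 libraries, and the groups overlapped. Its log2 fold change was -0.01 (SE 0.0877, 95% interval -0.20 to 0.19, edgeR adjusted p = 0.962). With the GC and length correction it became -0.26 and was called lower (adjusted p = 0.0026), in a transcript of 36.1% GC. Whether EREG changed therefore depended on that correction, and the cause of the GC trend was not tested.

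Counts of AREG per count of EREG were 0.24, 0.236 and 0.206 in control libraries and 0.182, 0.126 and 0.165 with overexpression. Every overexpressing library lay below every control library (0.227 ± 0.0184 against 0.158 ± 0.029, SD, two-sided exact permutation p = 0.1, the smallest possible). These ratios use counts not corrected for GC content, which was 45.3% in the AREG transcript and 36.1% in that of EREG. After GC and length correction the log2 fold changes of AREG and EREG were -0.57 and -0.26, against -0.54 and -0.01 before. The 2 changes lay closer together in that fit. The 2 other annotated genes between the ends of the chromosome 4 cluster, both long noncoding RNAs, had counts of 0 to 1.

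HBEGF (ENSG00000113070, chr5:140332843-140346603, minus strand), the heparin-binding ligand and diphtheria toxin receptor, was measured at 5.87, 5.54 and 6.29 CPM in control libraries and at 6.14, 6.45 and 6.03 CPM with overexpression. The groups overlapped, and the log2 fold change was 0.07 (95% interval -0.16 to 0.30, edgeR adjusted p = 0.646). After GC and length correction it was 0.12. TGFA (ENSG00000163235, chr2:70447284-70554193, minus strand), the high-affinity EGFR ligand transforming growth factor alpha, was measured at 9.20, 9.15 and 9.44 CPM against 8.42, 9.52 and 8.52 CPM. Overexpressing replicate 2 was the highest of the 6 and the other overexpressing libraries were the lowest. The log2 fold change was -0.07 (95% interval -0.28 to 0.14, edgeR adjusted p = 0.597), and -0.16 after GC and length correction. BTC (ENSG00000174808, chr4:74744759-74794523, minus strand), betacellulin, was measured at 4.15, 3.19 and 4.54 CPM against 3.82, 4.14 and 4.53 CPM. Its groups overlapped, control replicate 2 was lowest, and the log2 fold change of 0.07 (95% interval -0.27 to 0.40, edgeR adjusted p = 0.761) became -0.11 with the GC and length correction.

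NRG1 (ENSG00000157168, chr8:31639222-32855666, plus strand), the neuregulin that binds ERBB3, was measured at 13.3, 14.1 and 15.5 CPM in control libraries and at 14.9, 18.7 and 16.0 CPM with overexpression. Overexpressing replicate 1 lay within the control range and the other two above it. NRG1 had a log2 fold change of 0.21 (SE 0.106, 95% interval -0.03 to 0.44, edgeR adjusted p = 0.172), and -0.02 with the GC and length correction.

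ERRFI1 (ENSG00000116285, chr1:8004404-8026309, minus strand), also called MIG6, binds the kinase domain of active EGFR and ERBB2 and blocks it, and is itself induced by EGFR signalling. It was measured at 36.7, 36.0 and 38.0 CPM in control libraries and at 35.9, 43.0 and 40.4 CPM with overexpression. Overexpressing replicate 1 was the lowest library and the other two were the highest. The log2 fold change was 0.11 (SE 0.0779, 95% interval -0.07 to 0.28, edgeR adjusted p = 0.336) and 0.01 with the GC and length correction. HBEGF, TGFA, BTC, NRG1 and ERRFI1 were called in none of the 14 alternative settings.

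**Figure D2:**
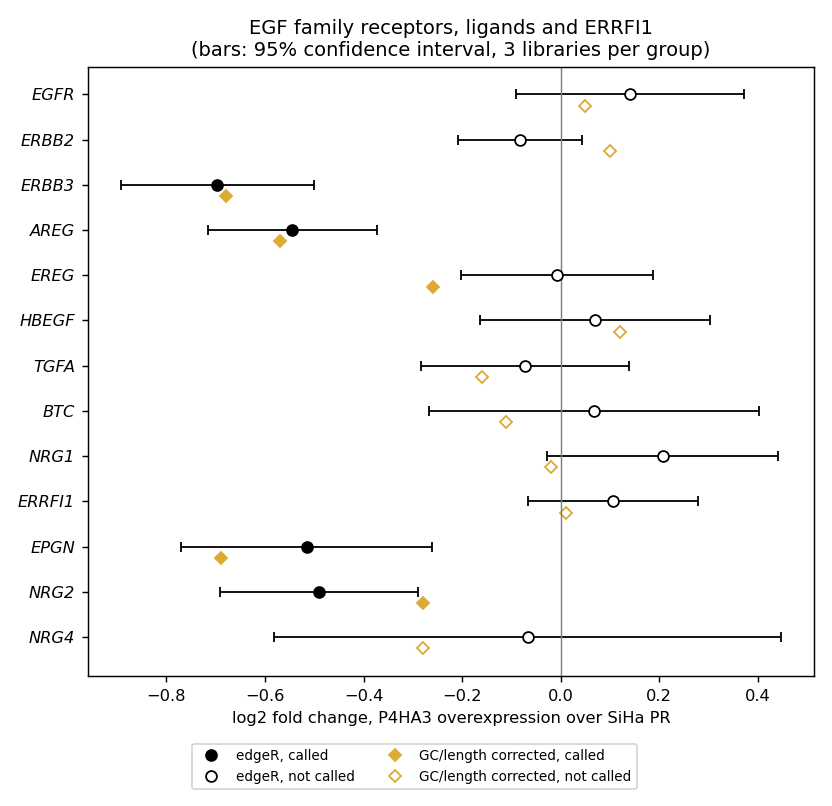
Log2 fold change (x axis, SiHa PR P4HA3 over SiHa PR) of the 10 members and of EPGN, NRG2 and NRG4, with circles and 95% intervals for the edgeR fit, diamonds for the value after GC and length correction, and filled symbols for called genes. ERBB3 at -0.70 and AREG at -0.54 are called in both fits, and EREG moves from -0.01 to -0.26.

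To compare levels between genes, CPM was divided by the length in kb of the canonical transcript, and on this scale the members spanned a wide range in control libraries. EREG was highest at 52.7 ± 4.28 CPM per kb (SD, n = 3, as for the levels that follow), then AREG at 44.6 ± 1.03 and ERBB2 at 36.5 ± 1.42. The 3 did not overlap in their library ranges. ERRFI1 at 11.9 ± 0.327 and EGFR at 11.7 ± 0.837 CPM per kb came next and overlapped each other. Below them lay ERBB3 at 2.91 ± 0.179, HBEGF at 2.50 ± 0.16 and TGFA at 2.25 ± 0.0375 CPM per kb, with no overlap between neighbours. BTC at 1.49 ± 0.261 and NRG1 at 1.19 ± 0.0886 CPM per kb were lowest and overlapped.

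With overexpression the order of the means changed at 3 places. ERBB2 at 34.5 ± 1.46 CPM per kb moved above AREG at 30.6 ± 2.98, although the library ranges of these levels overlapped (32.8 to 35.5 and 27.3 to 33.1). ERBB3 at 1.79 ± 0.0537 CPM per kb moved from rank 6 to rank 8, below HBEGF at 2.63 ± 0.0917 and TGFA at 2.14 ± 0.148. EGFR at 12.9 ± 2.07 and ERRFI1 at 12.8 ± 1.16 CPM per kb, which overlapped in both groups, exchanged ranks 4 and 5. EREG, at 52.5 ± 6.03 CPM per kb, stayed highest. The place of ERBB3 depended on the length used, since by the length of all its annotated exons it was at rank 9 in control libraries.

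Within the receptors, ERBB2 held 71.4% ± 2.12 of the summed CPM per kb in control libraries and 70.2% ± 3.81 with overexpression (SD, n = 3 each). EGFR held 22.9% ± 1.8 against 26.2% ± 3.8, and ERBB3 5.69% ± 0.407 against 3.65% ± 0.147. Within the 6 ligands, EREG and AREG together made up nearly all of the sum. The share of AREG was 42.6% ± 1.96 in control libraries and 33.8% ± 4.08 with overexpression, and that of EREG was 50.3% ± 1.84 and 57.7% ± 3.96. These shares follow from the levels above, were not corrected for the GC and length trend, and were not tested. After that correction EREG was called lower as well as AREG (log2 fold changes -0.26 and -0.57).

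**Figure D3:**
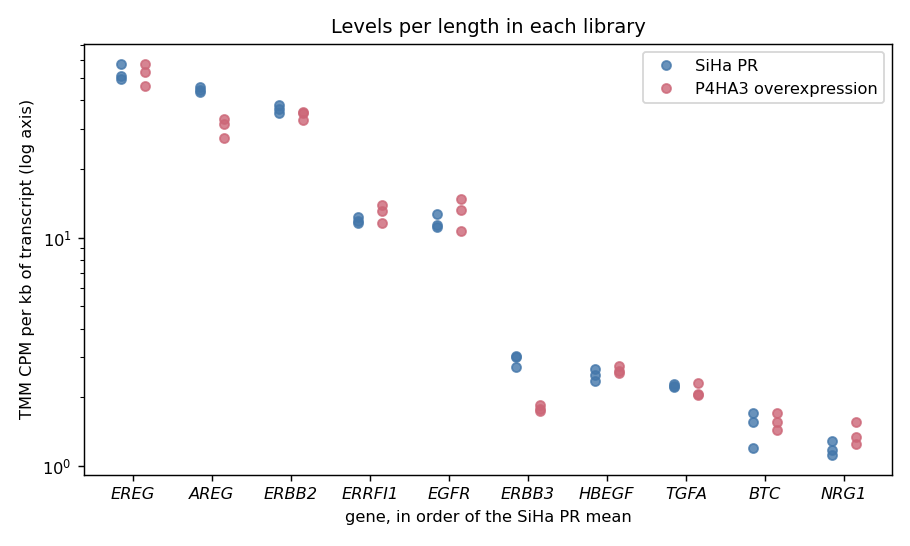
Level of each member as CPM per kb of canonical transcript on a log axis, in order of the control mean, with 1 point per library for SiHa PR and SiHa PR P4HA3. EREG, AREG and ERBB2 stand above all others in both groups, and ERBB3 shifts below HBEGF and TGFA with overexpression.

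The family has 6 further genes, and 3 of them had too few counts to test. ERBB4, the remaining receptor, had 1 count in 1 control library and 0 in the others, EGF was counted between 0 and 5 times per library, and NRG3 was counted 0 times in all 6. Since 3 counts correspond to 0.118 to 0.141 CPM in these libraries, ERBB4 and NRG3 were not detectable at this depth. Of the 3 tested genes 2 were called lower and 0 higher, and the same counts held after GC and length correction. Beside this list and those that follow stand the shares of all tested genes, 11.4% called lower and 9.36% higher. With the correction these shares were 7.73% and 10.7%.

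EPGN, which encodes epigen, a low-affinity EGFR ligand, was measured at 6.04, 6.01 and 6.13 CPM in control libraries and at 3.95, 4.71 and 4.06 CPM with overexpression. The control libraries hardly differed, and all overexpressing libraries lay below them, as in 20.4% of all tested genes. This amounted to a log2 fold change of -0.52 (SE 0.115, edgeR adjusted p = 0.0146), and to -0.69 with the GC and length correction. It was called in 11 of 14 alternatives, and lost without control replicate 1, without control replicate 2 or without overexpressing replicate 3, with an adjusted p of at most 0.0706.

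NRG2, a neuregulin that binds ERBB3 and ERBB4, was measured at 10.8, 10.7 and 10.9 CPM in control libraries and at 8.03, 7.38 and 7.57 CPM with overexpression. Here too all overexpressing libraries lay below the control libraries, as in 20.4% of all tested genes. The log2 fold change was -0.49 (SE 0.0908, edgeR adjusted p = 0.00741), it was called in all 14 alternatives, and it shrank to -0.28 with the GC and length correction. NRG4, a ligand of ERBB4, was counted between 17 and 23 times per library, with a log2 fold change of -0.07 (edgeR adjusted p = 0.865). After GC and length correction it was -0.28 and still not called.

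The genes that shed and export the ligands showed no common direction, with 2 called higher and 2 lower of 13 tested and a median log2 fold change of 0.00 (0.04 after GC and length correction, again with 2 higher and 2 lower). The sheddase ADAM17, which releases AREG, EREG, HBEGF and TGFA, had a log2 fold change of 0.00 (edgeR adjusted p = 0.968), but was called lower after GC and length correction (-0.15, adjusted p = 0.0404). ADAM9, another metalloprotease, was higher by 0.40 on the log2 scale (0.20 after correction), and BACE1, an aspartyl protease that cleaves NRG1, by 0.37 (0.36 after correction). ADAM15 fell by 0.36 and CNIH4, a cargo receptor in the secretory pathway, by 0.28 on the log2 scale. BACE1 was called in all 14 alternatives. The other 3 were lost without control replicate 1, control replicate 2 or overexpressing replicate 3, CNIH4 also without overexpressing replicate 2 and ADAM15 also after GC and length correction, with an adjusted p of at most 0.128.

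Among genes that inhibit or turn over the receptors, 4 of 21 tested were called higher and 1 lower, with a median log2 fold change of 0.11. After GC and length correction the median was 0.03, with 2 called higher and 0 lower. The higher genes before correction were the endosomal deubiquitinase USP8 (0.50), its partners STAM2 (0.44) and STAM (0.30), which sort receptors on endosomes, and the endocytic adaptor EPS15 (0.29). The lower gene was the kinase TNK2 (-0.23). USP8, at 0.23 after correction, was the 1 call of these 5 that remained, and the sorting adaptor HGS (0.05 before and 0.30 after correction) was gained. In the uncorrected fit all 5 were lost without control replicate 1, control replicate 2 or overexpressing replicate 3, which left 0 calls in the list.

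The adaptors and the RAS-MAPK core were called higher in 3 and lower in 4 of 22 tested genes, with a median log2 fold change of -0.01 (0.07 after GC and length correction, with 2 higher and 4 lower). The scaffold KSR1 fell by 0.50 and the adaptor GRB7, which binds ERBB2 and ERBB3, by 0.33 on the log2 scale. NRAS, a RAS protein, was higher by 0.32 and MAPK3, the kinase ERK1, fell by 0.31. After GC and length correction 3 of the 7 calls remained, and GRB7, NRAS and MAPK3 were among those lost. KSR1 was called in all 14 alternatives, and it was the 1 call of the list without control replicate 1, without control replicate 2 or without overexpressing replicate 3.

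In the PI3K-AKT core 4 of 14 tested genes were called higher and 2 lower, with a median log2 fold change of 0.21 (0.09 after GC and length correction, with 3 higher and 0 lower). The phosphatase PHLPP2 was higher by 0.31 (0.18 after correction) and the kinase PDPK1 by 0.23 on the log2 scale (0.23 after correction), and the kinase AKT2 fell by 0.23. After GC and length correction 3 of the 6 calls remained, and AKT2 was among those lost. PHLPP2, PDPK1 and AKT2 were lost without control replicate 1, control replicate 2 or overexpressing replicate 3, PDPK1 and AKT2 also without overexpressing replicate 2, with an adjusted p of at most 0.249.

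The genes that the MAPK cascade induces, many of them its own feedback inhibitors, leaned downwards. Of 23 tested, 9 were called lower and 2 higher, while the shares over all tested genes were 11.4% lower and 9.36% higher. The median log2 fold change of the 23 was -0.20 beside 0.01 over all tested genes. With the GC and length correction 10 of these 11 calls remained with the same sign, 5 genes were called higher and 10 lower, and the median was -0.17.

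ETV4, an ETS transcription factor of the PEA3 group, was measured at 30.7, 29.5 and 25.7 CPM in control libraries and at 17.7, 15.8 and 14.9 CPM with overexpression, a log2 fold change of -0.83 (SE 0.0972, edgeR adjusted p = 0.00111). Its relative ETV5 was measured at 56.6, 53.0 and 49.4 CPM against 40.5, 37.9 and 39.5 CPM (-0.43, adjusted p = 0.00424). IER3, an early response gene, was measured at 51.7, 54.8 and 50.0 CPM against 38.5, 29.9 and 31.8 CPM (-0.64, adjusted p = 0.00261). In these 3 genes no overexpressing library reached the lowest control library, as in 20.4% of all tested genes. Each of the 3 was called in all 14 alternatives. After GC and length correction their log2 fold changes were -0.60, -0.45 and -0.45.

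Of the feedback inhibitors, DUSP4, DUSP5, DUSP6 and SPRY4 were called lower, while DUSP7, SPRY2, SPRED1, SPRED2 and SPRED3 were not called, with log2 fold changes from -0.20 to 0.05. After GC and length correction SPRED1 was called lower (-0.37) and DUSP7 higher (0.18). The ERK phosphatase DUSP6 was measured at 7.92, 6.66 and 7.60 CPM in control libraries and at 5.92, 5.07 and 5.40 CPM with overexpression (log2 fold change -0.44, edgeR adjusted p = 0.0258), and was called in 8 of 14 alternatives, among the fits without 1 library only in that without overexpressing replicate 1. The RAS pathway inhibitor SPRY4 was measured at 15.6, 17.2 and 16.3 CPM against 11.8, 12.9 and 13.2 CPM (-0.37, adjusted p = 0.0189), and was called in 11 of 14, but not without control replicate 1, control replicate 2 or overexpressing replicate 3 (adjusted p at most 0.0973). The phosphatase DUSP5 had a log2 fold change of -0.35 (adjusted p = 0.0367) and was called in 7 of 14 alternatives, not after GC and length correction. In DUSP6, SPRY4 and DUSP5 every overexpressing library lay below every control library, as in 20.4% of all tested genes.

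Against this direction stood EGR1, an immediate early transcription factor, at 9.61, 11.2 and 11.6 CPM in control libraries and 13.8, 16.7 and 17.0 CPM with overexpression (log2 fold change 0.56, edgeR adjusted p = 0.0105, called in 11 of 14 alternatives and lost without control replicate 1, control replicate 2 or overexpressing replicate 3). EPHA4, an ephrin receptor, was the other gene called higher (0.76, adjusted p = 0.0158), and was lost without control replicate 1 or control replicate 2 (adjusted p at most 0.0738).

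**Figure D4:**
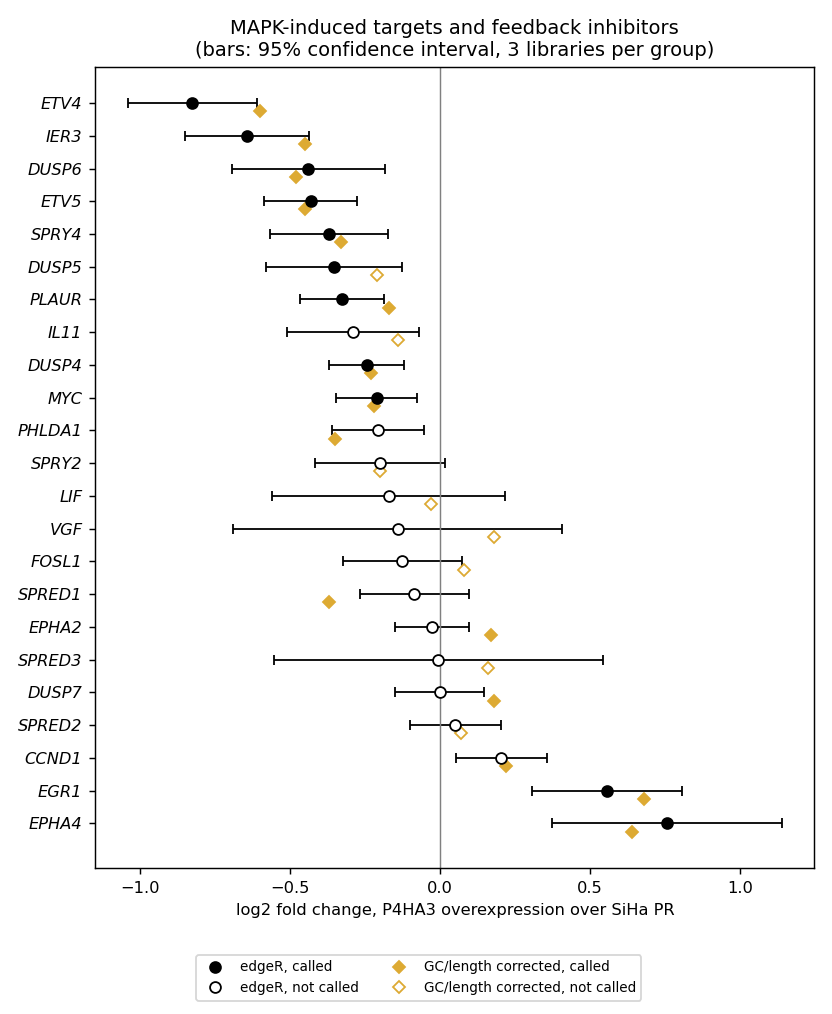
Log2 fold change (x axis, SiHa PR P4HA3 over SiHa PR) of the 23 tested MAPK-induced targets and feedback inhibitors, with circles and 95% intervals for the edgeR fit, diamonds for the value after GC and length correction, and filled symbols for called genes. The 9 genes called lower in the edgeR fit include ETV4 at -0.83 and IER3 at -0.64, and EPHA4 and EGR1 are the 2 called higher.

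Some of these counts rested on single libraries. Calls over all genes numbered 3147, and 781 without control replicate 1, 534 without control replicate 2, 904 without overexpressing replicate 3 and 5530 without overexpressing replicate 1. The MAPK-induced list then had 4, 3, 5 and 11 calls in place of 11, the RAS-MAPK core 1, 1, 1 and 15 in place of 7, the turnover list 0, 0, 0 and 11 in place of 5, and the PI3K-AKT core 1, 0, 1 and 9 in place of 6. The 2 members called lower were called in each of these fits.

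The other receptor tyrosine kinases served as a comparison for the receptors. Of 20 tested, 4 were called higher and 5 lower, against 0 and 1 of the 3 EGFR family receptors, and the difference was not tested. Corrected for GC and length, 4 were called higher and 4 lower. FGFR4 (-0.86) and TYRO3 (-0.45) were lower, FGFR3 (0.54) and MET (0.45) higher on the log2 scale, and FGFR4, FGFR3 and TYRO3 were called in all 14 alternatives. MET was lost without control replicate 2 (adjusted p = 0.0623).

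Among epithelial markers, the adhesion protein CDH1 moved with ERBB3 and AREG, from 16.5 to 9.66 CPM (log2 fold change -0.77, edgeR adjusted p = 0.00114). Of 8 tested epithelial and squamous markers 3 were called lower, with KRT18 and KRT17 beside CDH1, and 0 higher. Correction for GC and length left CDH1 (-0.80) and KRT18 (-0.20) called lower but not KRT17 (-0.07), and KRT7 (0.34) and SFN (0.15) were then called higher. The summed level of all 10 listed markers was 11700 to 13300 CPM in control libraries and 11000 to 12500 CPM with overexpression. Their part in the lower ERBB3 and AREG was not tested. The 7 fibroblast markers had 0 calls (LUM was called lower after GC and length correction) and a sum of 188 to 198 CPM against 148 to 189 CPM, and blood and endothelial markers summed to 2.62 to 3.47 CPM against 1.33 to 1.7 CPM, with 6 of 7 at most 1 CPM as a mean over the 6 libraries. PECAM1, the 1 tested marker of the latter, was called lower (log2 fold change -1.03, edgeR adjusted p = 0.00494).

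Over the 6 libraries the genes whose levels followed EGFR most closely were TRAF6, RAD17 and FMR1, each with a Pearson's r of 0.996 among 10640 genes of at least 5 CPM. Transcripts of the 3 genes have GC contents of 41.2%, 37.9% and 39.2%, beside 47.8% for EGFR. Closest to ERBB3 were ENSG00000112096, for which the annotation used here gave no symbol (r = 0.998), KLF11 (r = 0.994) and TNFRSF8 (r = 0.992). With 6 libraries in 2 groups, and with GC trends that differed between libraries, these values are a description.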

How the data were processed

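The deposited values were raw counts per Ensembl gene, 1 column per library. To make them, the authors (supplementary methods) selected polyadenylated RNA, made dUTP strand-specific libraries, sequenced paired ends, aligned to GRCh38 with STAR and counted with HTSeq. The submitters' processing notes name HISAT2 instead. Versions and strand setting are not given in the sources used here.

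Differential expression was computed here with edgeR 4.0.16 (R 4.3.3), using filterByExpr (minimum count 10), TMM normalization and the two-sided quasi-likelihood test of the 3 overexpressing against the 3 control libraries, with Benjamini-Hochberg adjustment over all tested genes and a threshold of 0.05. CPM are TMM-normalized. Intervals (95%) cover the fitted spread between libraries. Symbols, positions, lengths and GC content came from a GENCODE annotation of GRCh38, a later release than the authors', and promoters from RefSeq. Alternatives were RLE scaling, library sizes only, no filter, limma-voom (3.58.1), DESeq2 (1.42.0), a replicate block, a GC and length offset from smooth fits (mgcv 1.9.3) with and without the block, and each library left out. Scripts were tested on simulated data.

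Members and gene lists were chosen with earlier results of these data known, so list counts are descriptions. The genes named are all members, the other 6 family genes, P4HA3, up to 4 called genes per list by absolute log2 fold change at a mean of at least 1 CPM (up to 8 for MAPK-induced targets), and the 3 genes most like EGFR and ERBB3. ADAM17, TNK2, HGS, DUSP4, the uncalled or corrected-only genes and the marker genes singled out were named after their values were seen. A gene that this rule would name is not reported here. The deviations of samples that share a replicate number had correlations of 0.25, -0.05 and 0.03. Those of samples with different numbers ran from -0.302 to 0.268, which covers the former. The number was therefore not treated as a pairing, and a fit with a replicate block is among the alternatives.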

Additional observations from a re-analysis of the deposited data

How the results depend on the processing

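ERBB3, AREG and P4HA3 kept their direction and stayed called under all 14 alternatives. EREG changed sign with library sizes only (0.0096), with no filter (0.0027) and in some fits without 1 library, where it ran from -0.0855 to 0.0796. With the GC and length correction ERBB2 turned to 0.10, BTC to -0.109 and NRG1 to -0.0189 on the log2 scale. With that correction and the replicate block together the values were 0.103, -0.10 and -0.019. With 1 library left out BTC ran from -0.0582 to 0.179.

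Genes called higher numbered 1416, against 2384 with no filter, 2138 with the replicate block and 2184 with the block and the GC correction. The turnover list had 8, 9 and 4 calls there and 2 with the GC correction alone, in place of 5. The RAS-MAPK core had 11 in all 3 settings, in place of 7. The PI3K-AKT core had 3 with the GC correction, with or without the block, in place of 6. The replicate block gave 4313 calls in all and changed no call among the members.

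With 1 library left out, genes called higher ran from 163 to 2814 and lower from 371 to 2716, and members called higher from 0 to 1. Calls ran from 1 to 2 in the other EGF family genes, 1 to 6 in shedding, 0 to 11 in turnover, 1 to 15 in the RAS-MAPK core, 0 to 9 in the PI3K-AKT core, 3 to 11 in MAPK-induced targets and 8 to 10 in other receptor tyrosine kinases. Apart from the settings named, the cause of these shifts was not tested. BTC and HBEGF had only 68 to 154 counts per library, and how far low counts limit their values was not tested.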
